A study of Mus musculus with 8 samples.

Results

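The genes described here are 33 regulators of cell death and survival: the Bcl-2 family, the apoptotic caspases with their adaptors and inhibitors, the necroptosis genes and the Pim survival kinases. They were chosen by gene symbol from the 41444 genes of the deposited table, and each symbol matched 1 row. The samples were macrophages grown from the bone marrow of wild-type C57BL/6 mice with 100 ng/mL of the growth factor M-CSF. One group of 4 samples received vehicle, and the other group of 4 received 6 nM SLIT2, a secreted ligand of ROBO receptors, for 16 hours. The labels do not state age or sex of the mice or whether the 4 replicates were separate animals or cultures, and the spread behind each p-value is therefore that of these libraries alone and could be technical. The comparison sets the RNA levels of SLIT2-treated macrophages against those of vehicle-treated ones, with pro-death and pro-survival genes counted apart.

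Mitochondrial apoptosis is controlled by the Bcl-2 family. Pro-survival members hold the pore-forming proteins Bax and Bak1 in check, and BH3-only proteins relieve that restraint when a cell is stressed or loses its growth factor. Open mitochondria release cytochrome c, which joins Apaf1 to activate caspase-9, and Diablo, which blocks the inhibitor of apoptosis proteins (IAPs). A separate route starts at death receptors, where Fadd recruits caspase-8, and where Ripk1, Ripk3 and Mlkl can instead drive a lytic death called necroptosis. Macrophages depend on M-CSF for survival, and Bcl2a1 and Mcl1 are pro-survival genes well known from myeloid cells.

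Expression is given as regularized-log (rlog) values, in log2 units. They are not corrected for gene length, so levels are compared between samples and not between genes. No read counts were used here and the depth per sample is unknown. Replicates 1 and 2 stood apart from replicates 3 and 4 in both groups. Xist, the RNA of the inactive X chromosome, lay between 7.47 and 7.65 in replicates 1 and 2 and between 12.69 and 12.79 in replicates 3 and 4. The Y-linked gene Ddx3y went the other way, from 10.75 to 10.83 in replicates 1 and 2 and from 5.90 to 6.45 in replicates 3 and 4. Same-numbered vehicle and SLIT2 samples deviated together across genes, so values with the replicate number as a block are given wherever they change a call. Replicates 2 and 4 correlated best with numbers 1 and 3, so a pairing was seen by set but not by number. Of 12 macrophage markers 11 were measured above the minimum described below, and Tyrobp was listed at 0 in every library. The T cell markers Cd3e and Cd3g were at -2.14, the lowest value of the table. Of 11 tested macrophage markers 2 rose (among them Fcgr1) and 2 fell (Cd68 and Csf2ra), and their level, summed on the linear scale and returned to log2, ranged from 19.09 to 19.58 in vehicle and from 19.05 to 19.57 in SLIT2. With the block 4 were higher and 3 lower.

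The other marker lists were summed likewise. The 10 neutrophil markers ranged from 11.28 to 11.48 in vehicle and from 11.88 to 12.24 in SLIT2, where Csf3r rose by 0.68 (adjusted p = 0.00215). Csf3r was the only called gene of the 3 tested, and S100a8, S100a9, Cxcr2 and Ngp differed by -0.16, -0.26, -0.24 and -0.19. Ly6g and Retnlg were listed at 0, as was Tyrobp. The 8 dendritic cell markers ranged from 6.56 to 7.30 and from 7.88 to 8.91, with Kmo higher by 1.91 (adjusted p = 0.0213), while Xcr1, the other tested, differed by -0.16 (adjusted p = 0.62). The 10 lymphocyte markers, with Cd4 alone tested and lower, ranged from 9.92 to 10.28 and from 9.46 to 9.81. The 7 osteoclast markers ranged from 10.38 to 10.66 and from 9.68 to 9.93, with 2 of 4 tested lower in both fits, Dcstamp and Itgb3. The 9 cell cycle markers ranged from 14.05 to 14.23 and from 13.72 to 13.88, with Pcna lower without the block and 6 of 9 lower with it. The 10 stromal and endothelial markers ranged from 10.39 to 10.67 and from 10.58 to 10.89. Of 6 tested, Col3a1 was higher by 0.67 (adjusted p = 0.0422), and 2 were higher with the block. The 6 erythroid and megakaryocytic markers ranged from 9.05 to 10.53 and from 9.96 to 12.31. Both tested, the platelet chemokine genes Pf4 and Ppbp, passed with the block only, with differences of 1.36 and 1.15 (adjusted p = 7.15e-04 and 0.0134 with it, 0.212 and 0.0908 without). The part of these shifts in the results below was not tested, and in bulk RNA a change in the share of a cell type and a change in RNA per cell cannot be told apart.

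With SLIT2, the survival kinase gene Pim1, the apoptosome gene Apaf1, the executioner caspase gene Casp6 and the BH3-only genes Bad and Bcl2l11 rose, by 0.17 to 0.76 on the log2 scale. The pro-survival genes Bcl2l1 and Bcl2a1d fell, by 0.28 and 0.62. These 7 genes were called by limma at a Benjamini-Hochberg adjusted p under 0.05 among the 31 members with a mean rlog value of at least 4, which is 22.6% of them. Of all 11851 genes tested, 13.3% were called, 6.76% as higher and 6.58% as lower. Bok and Bik lay below the minimum. With the duplicates of each replicate set averaged, which leaves 2 values a group, and the set as a block, 3 members were called (Bcl2a1d, Bcl2a1b and Bmf), and 6 of the 7 were not (adjusted p from 0.059 for Apaf1 to 0.109 for Bcl2l11). An exact two-sided permutation test could not go below an unadjusted p of 0.0286 at this size. Its smallest adjusted p over the genes tested was 0.139. The plot of every member by library shows the direction of each gene and the offset between the replicate sets.

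**Figure D1:**
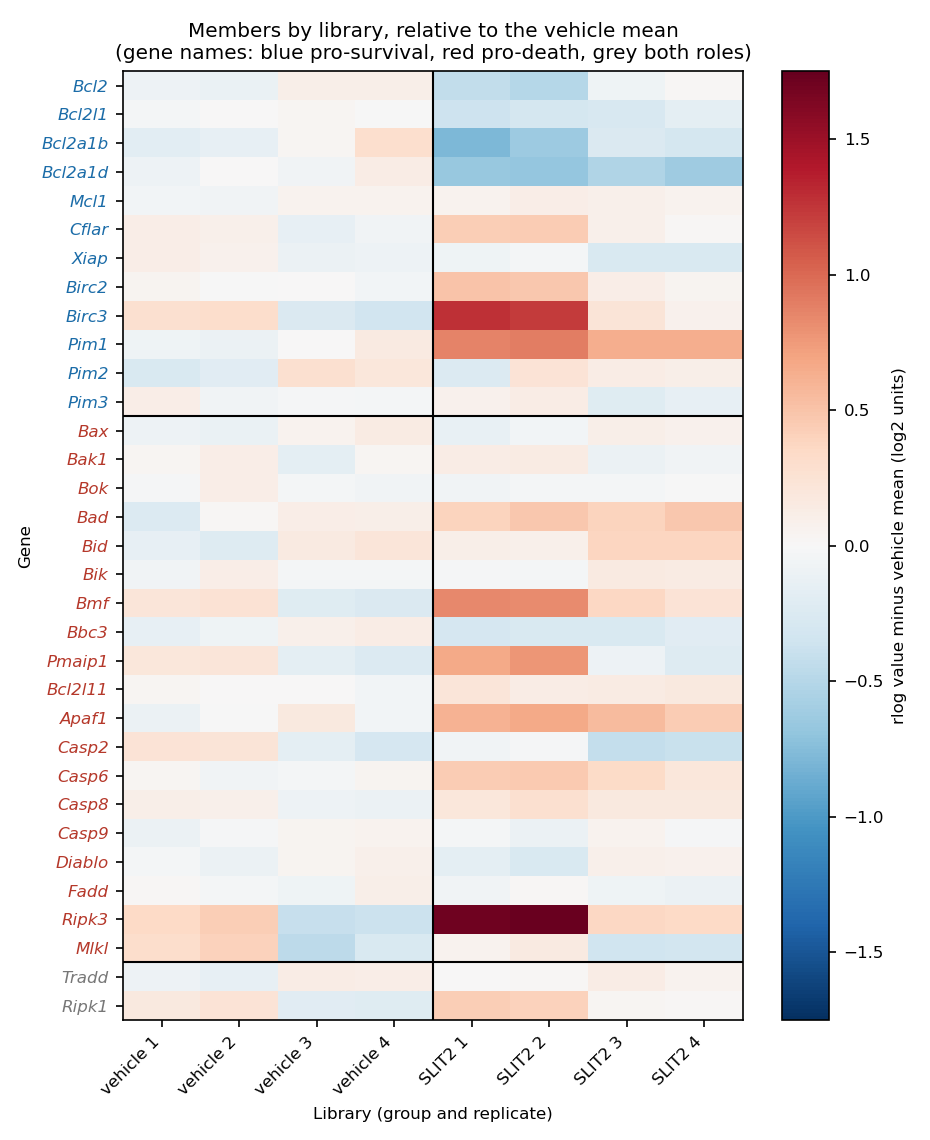
Each row is a gene, each column a library, and the colour gives the rlog value minus the mean of the 4 vehicle libraries, in log2 units. Pim1, Apaf1 and Bad are higher in all 4 SLIT2 libraries and Bcl2a1d and Bcl2l1 are lower in all 4, while Ripk3 and Birc3 are highest in SLIT2 replicates 1 and 2.

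Among 12 pro-survival genes, all tested, 1 rose and 2 fell. Among 17 tested pro-death genes, of 19 listed, 4 rose and 0 fell in limma, with Bbc3 the 1 lower gene at an unadjusted p under 0.05. The 2 genes with roles on both sides, Tradd and Ripk1, did not pass. With the replicate block, 4 pro-survival genes were higher and 5 lower, and 8 pro-death genes were higher and 2 lower. That made 20 of 31 members, or 64.5%, where the block called 33% of all genes tested, 16.6% as higher and 16.4% as lower. A block for the replicate set in place of the number called 21 members, 14 higher and 7 lower, and 39.3% of all genes tested, 20.0% as higher and 19.3% as lower. The median difference was 0.165 for pro-death genes and 0.01 for pro-survival genes, beside 0.0025 for all genes tested. In replicates 1 and 2 alone the medians were 0.135, 0.113 and 0, so the 2 sides were close there. In replicates 3 and 4 they were 0.05, -0.127 and 0.005. The median size of a difference regardless of sign was 0.238 for the members and 0.112 for all genes tested. Groups did not overlap for 11 of 31 members, 35.5%, against 20.5% of all genes tested. Of the 11, 7 were higher with SLIT2 (10.6% of all genes tested) and 4 lower (9.99%). The members and lists were chosen with earlier results of these data known. Shares set beside those of all genes tested, here and elsewhere, are therefore no test of a list.

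**Figure D2:**
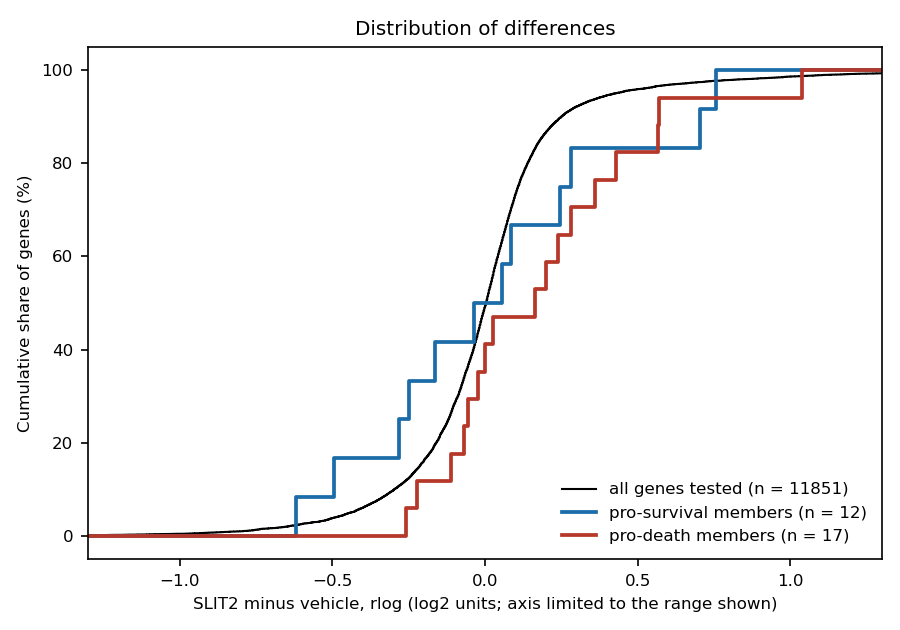
The lines give the cumulative share of genes, in percent, up to each SLIT2 minus vehicle difference in log2 units. Over most of its range the line of pro-death genes lies to the right of that of all genes tested (median 0.165 against 0.0025), while the line of pro-survival genes runs from -0.62 to 0.76 and crosses that of all genes near 0.

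**Figure D3:**
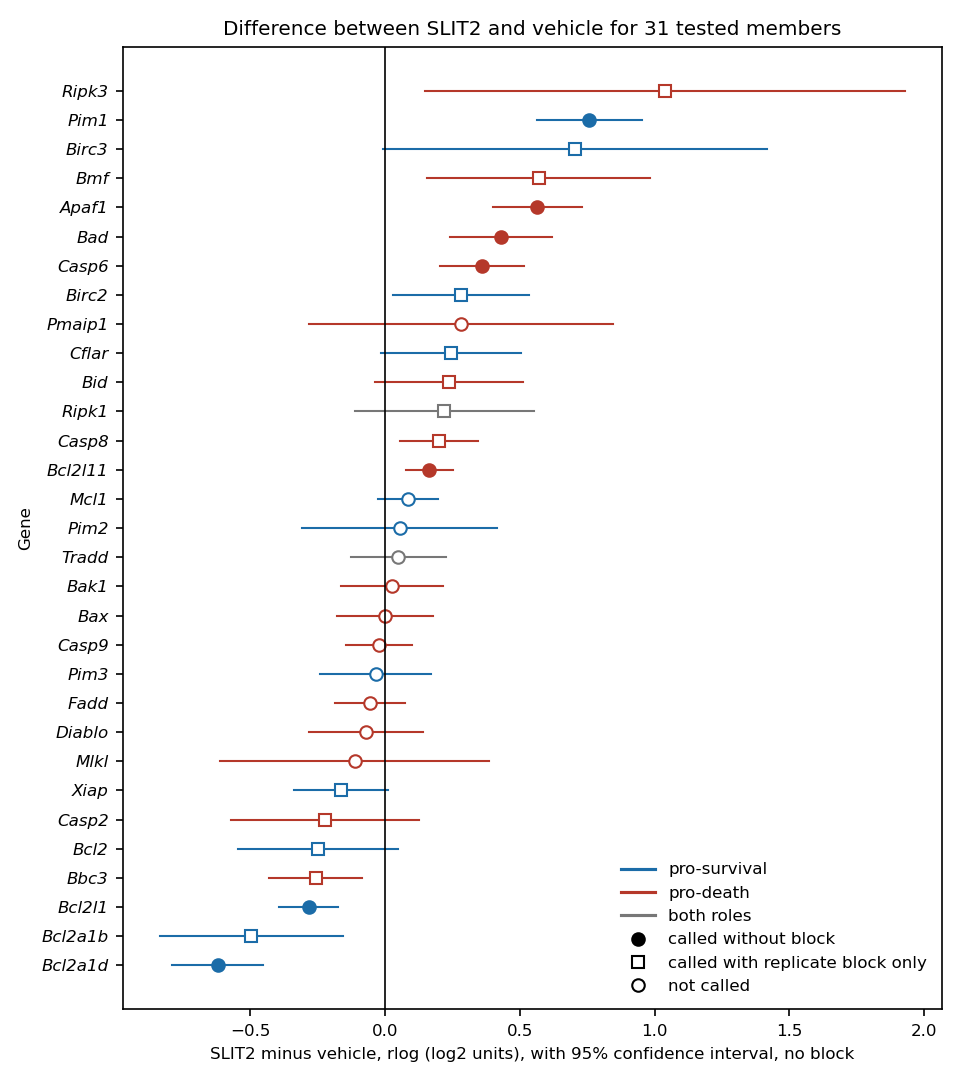
Points are SLIT2 minus vehicle differences in log2 units for the 31 tested members and bars are 95% confidence intervals of the fit without a block. Filled circles mark the 7 genes called without the block, from Bcl2a1d at -0.62 to Pim1 at 0.76, and squares mark genes called only with it.

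Of the 5 anti-apoptotic Bcl-2 genes 2 fell, and with the block 4 were lower and Mcl1 was not called. Bcl2a1d, a member of the A1 family that blocks BH3-only proteins, had values of 7.47, 7.57, 7.50 and 7.69 in vehicle replicates 1 to 4 and of 6.90, 6.88, 7.03 and 6.94 with SLIT2. All 4 SLIT2 libraries lay below all 4 vehicle libraries, a fall of 0.62 on the log2 scale (SE 0.0732, adjusted p = 0.00111) or 0.651 times the vehicle level. Its paralog Bcl2a1b had 10.79, 10.84, 11.02 and 11.27 in vehicle and 10.20, 10.34, 10.73 and 10.67 with SLIT2. The groups again did not overlap, but the replicate sets were spread apart within each group. Its difference was -0.49 (SE 0.147, adjusted p = 0.0635, and 0.00137 with the replicate block).

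These A1 genes are near-identical copies on chromosome 9, so reads can belong to more than one of them. Bcl2a1b (chr9:89199209-89207827, plus strand) and Bcl2a1d (chr9:88723285-88731914, minus strand) had 98.8% identical coding sequence in GENCODE M21 on GRCm38, with 6 differences in 516 bases. The first 120 coding bases, from the start codon, hold 7 positions where Bcl2a1a, Bcl2a1b and Bcl2a1d are not all alike, and these are in capitals. They are shown because the coding parts of these genes differ at so few bases.
Bcl2a1a: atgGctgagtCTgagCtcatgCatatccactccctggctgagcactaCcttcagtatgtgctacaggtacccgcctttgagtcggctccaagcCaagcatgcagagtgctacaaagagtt
Bcl2a1b: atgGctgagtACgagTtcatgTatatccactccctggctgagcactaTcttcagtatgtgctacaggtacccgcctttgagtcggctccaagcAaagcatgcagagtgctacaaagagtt
Bcl2a1d: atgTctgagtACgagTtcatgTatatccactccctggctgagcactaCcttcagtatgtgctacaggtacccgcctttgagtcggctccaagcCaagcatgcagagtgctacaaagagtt
Of all stretches of 101 bases, the read length, in the transcript of Bcl2a1d, 54.0% also occurred in another A1 gene, and of those in Bcl2a1b 30.5% did. How reads shared by the copies were assigned is not stated in the labels, and the values of the 2 genes are uncertain as separate measurements. Bcl2a1b also shares 401 exonic bases, 49.1% of its own, with Gm29094 on its strand. Gm29094 differed by -0.27 in limma (adjusted p = 0.0862, and 0.033 with the block), also with no overlap between the groups. Whether these 2 genes share reads was not tested. Bcl2a1a had a mean of 4.06 in vehicle and 4.07 with SLIT2 (adjusted p = 0.973).

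Bcl2l1, which encodes Bcl-xL and its shorter pro-death isoform, had 12.07, 12.11, 12.13 and 12.10 in vehicle and 11.74, 11.79, 11.82 and 11.93 with SLIT2. Every SLIT2 value lay below every vehicle value, and the gene fell by 0.28 (SE 0.0475, adjusted p = 0.00615). Gene-level values do not separate the isoforms. Bcl2, the founding member, had 9.73, 9.71, 9.93 and 9.93 in vehicle and 9.39, 9.32, 9.75 and 9.85 with SLIT2. The groups overlapped, and its difference of -0.25 had adjusted p = 0.277 without the block and 0.023 with it. Mcl1, a short-lived pro-survival protein, lay between 15.18 and 15.30 in vehicle and between 15.31 and 15.36 with SLIT2. The groups did not overlap but lay 0.01 apart, with a difference of 0.085 (95% confidence interval -0.025 to 0.195, adjusted p = 0.317, and 0.147 with the block).

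The pore-forming effectors did not pass in either fit. Bax had a mean of 11.25 ± 0.123 in vehicle and 11.25 ± 0.112 with SLIT2 (SD, n = 4), and the interval of its difference ran from -0.18 to 0.18. Bak1 differed by 0.025 (interval -0.16 to 0.21), and its sign turned with quantile normalization (-0.01). Bok was near the floor, between 0.78 and 0.95 in vehicle and between 0.78 and 0.83 with SLIT2, and was not tested.

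BH3-only genes, the sensors that relieve the restraint on Bax and Bak1, were higher where called without the block, 2 of 6 tested, and with the block 4 were higher and 1 lower. Bad, which binds Bcl-xL when it is not phosphorylated, had 9.02, 9.27, 9.37 and 9.36 in vehicle and 9.64, 9.73, 9.65 and 9.72 with SLIT2. It rose by 0.43 (SE 0.0825, adjusted p = 0.0113), with no overlap between the groups. Bad shares 524 exonic bases, 20.5% of its own, with Gpr137 on the opposite strand, which differed by 0.14 (adjusted p = 0.176). The labels name a stranded kit, but not whether reads were counted by strand. Bcl2l11, which encodes the BH3-only protein Bim, had 12.12, 12.09, 12.09 and 12.03 in vehicle and 12.29, 12.21, 12.23 and 12.26 with SLIT2. The groups did not overlap, but the step was small, 0.165 (SE 0.038, adjusted p = 0.0252). Its call was lost without any 1 of 6 of the 8 libraries (all but vehicle replicate 1 and SLIT2 replicate 2), up to an adjusted p of 0.0705, with no filter on the mean (0.0622) and with quantile normalization (0.124).

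Bmf, a BH3-only protein linked to the cytoskeleton, had 10.49, 10.54, 10.07 and 10.03 in vehicle and 11.13, 11.11, 10.65 and 10.52 with SLIT2. Within each replicate set the SLIT2 values were the higher, by 0.61 and 0.54, while over all libraries the lowest SLIT2 value lay below the highest vehicle value. Its difference of 0.57 had adjusted p = 0.0776 without the block and 1.44e-04 with it. Bid, which caspase-8 cleaves to link death receptors to mitochondria, lay at 10.63, 10.55, 10.93 and 10.98 in vehicle and 10.88, 10.86, 11.15 and 11.15 with SLIT2. The groups overlapped, and its difference of 0.24 had adjusted p = 0.258 without the block and 0.003 with it. Bid shares 628 exonic bases with Bcl2l13 on the opposite strand, which differed by less than 0.01 in size (adjusted p = 0.987).

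Bbc3, which encodes Puma, was the exception in direction among the BH3-only genes tested. It had 8.45, 8.52, 8.69 and 8.73 in vehicle and 8.30, 8.33, 8.33 and 8.40 with SLIT2. Its 4 SLIT2 libraries lay below all vehicle libraries, with a difference of -0.26 (SE 0.0757, adjusted p = 0.0612, and 0.0172 with the block). It passed without vehicle replicate 1 (adjusted p = 0.0424). Pmaip1, which encodes Noxa, a partner of Mcl1, had 9.25, 9.27, 8.88 and 8.81 in vehicle and 9.72, 9.83, 8.96 and 8.83 with SLIT2. SLIT2 replicates 1 and 2 lay above every vehicle library, while SLIT2 replicates 3 and 4 lay within the vehicle range, and its difference of 0.28 had adjusted p = 0.539 without the block and 0.0789 with it. Bik lay between 2.21 and 2.43 over the 8 libraries and was not tested.

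Apaf1, the scaffold of the apoptosome, had 11.14, 11.23, 11.41 and 11.19 in vehicle and 11.85, 11.90, 11.80 and 11.68 with SLIT2. It rose by 0.56 (SE 0.0717, adjusted p = 0.00156), or 1.48-fold on the rlog scale, with no overlap between the groups. The gene lies on the minus strand of chromosome 10 (chr10:90989311-91082770, GRCm38) and faces Ikbip across its promoter, which differed by 0.165 (adjusted p = 0.129). Casp6, an executioner caspase, had 9.57, 9.47, 9.50 and 9.58 in vehicle and 9.98, 9.99, 9.86 and 9.73 with SLIT2. It rose by 0.36 (SE 0.0685, adjusted p = 0.0109), and again no library crossed between the groups.

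The other caspases did not pass without the block. Casp8, the initiator at death receptors that also restrains necroptosis, had 11.50, 11.49, 11.30 and 11.29 in vehicle and 11.59, 11.67, 11.56 and 11.56 with SLIT2. Its groups did not overlap, and its difference of 0.20 had an adjusted p of 0.0761, of 0.00959 with the block and of 0.0482 with each library's median set alike. Casp2, an initiator caspase linked to DNA damage, had 9.94, 9.93, 9.54 and 9.41 in vehicle and 9.64, 9.69, 9.29 and 9.31 with SLIT2. The groups overlapped, with replicates 1 and 2 higher than 3 and 4 in both, and its difference of -0.22 had adjusted p = 0.415 without the block and 0.0126 with it. Casp9, the partner of Apaf1, had a difference of -0.02 (interval -0.15 to 0.10, adjusted p = 0.856). Diablo differed by -0.07 (interval -0.28 to 0.14, adjusted p = 0.712), and it shares 1193 exonic bases with Gm49027 on its strand.

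**Figure D4:**
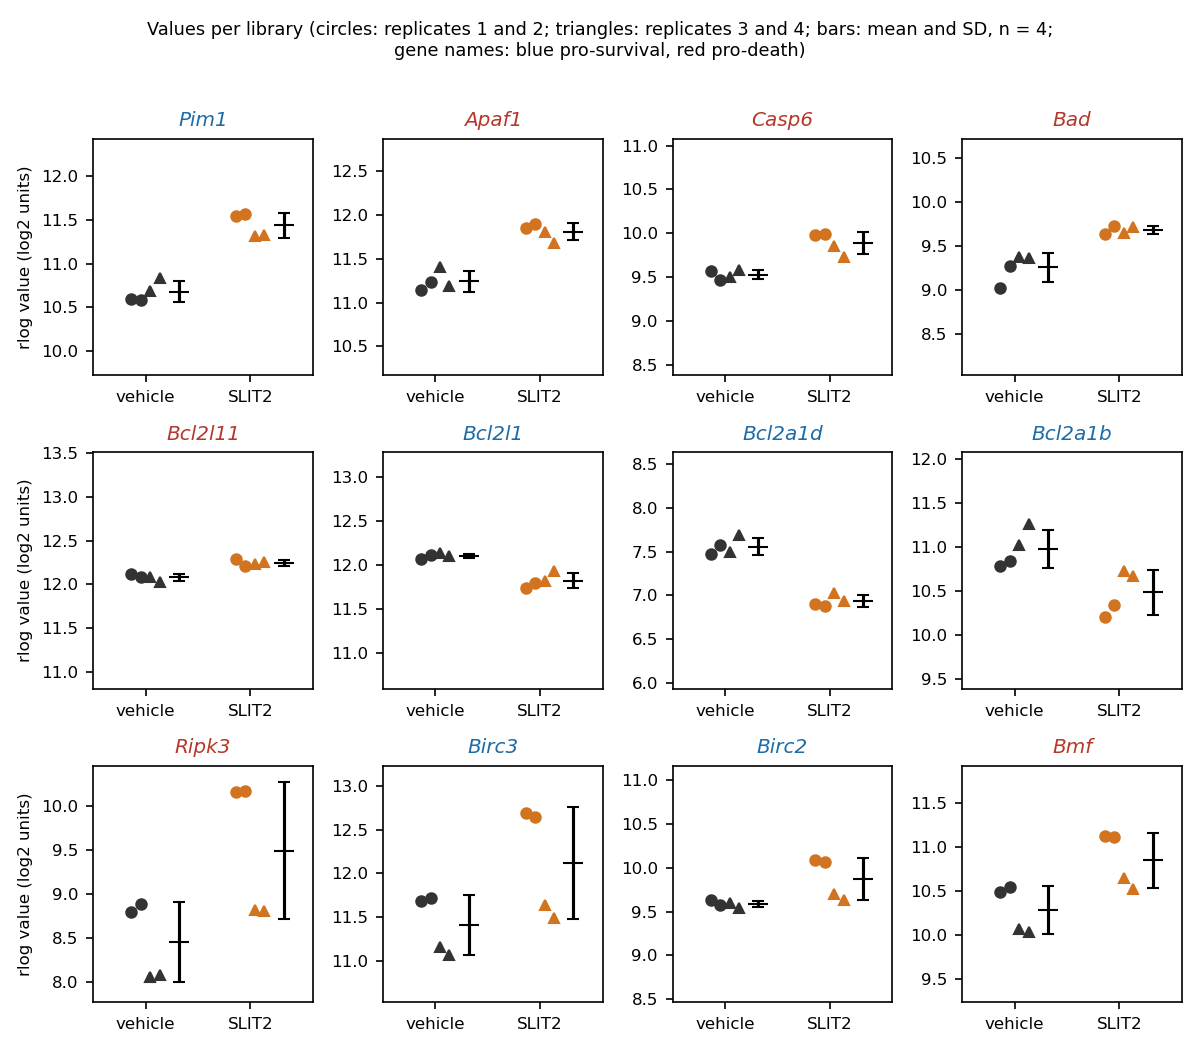
Each panel gives the rlog values of a gene in log2 units in the 4 vehicle and 4 SLIT2 libraries, on a range of equal height, with circles for replicates 1 and 2, triangles for replicates 3 and 4, and the mean with its SD. In Pim1, Apaf1, Casp6 and Bad every SLIT2 point lies above every vehicle point, and in Ripk3 and Birc3 the circles lie above the triangles of the same group.

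Of the 3 death receptor adaptors 0 passed in limma without the block, and 0 had an unadjusted p under 0.05, while Ripk1 passed with the block. Fadd differed by -0.06 (interval -0.19 to 0.08, adjusted p = 0.62) and Tradd by 0.05 (interval -0.13 to 0.23, adjusted p = 0.76). Ripk1, a kinase whose scaffold role favours survival and whose activity favours death, had 11.92, 11.98, 11.54 and 11.53 in vehicle and 12.17, 12.15, 11.77 and 11.76 with SLIT2. Its differences within the replicate sets were 0.21 and 0.23, and over all libraries it differed by 0.22 (adjusted p = 0.4 without the block and 0.00165 with it). Cflar, which encodes the caspase-8 inhibitor cFLIP, had 12.55, 12.53, 12.29 and 12.37 in vehicle and 12.86, 12.88, 12.53 and 12.45 with SLIT2. The SLIT2 value was higher at each replicate number, while the groups overlapped, with a difference of 0.245 (adjusted p = 0.217 without the block and 0.0102 with it).

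The necroptosis kinase gene Ripk3 had the largest difference of the 31 tested members but did not pass without the block. It had 8.80, 8.89, 8.05 and 8.08 in vehicle and 10.16, 10.18, 8.82 and 8.81 with SLIT2. SLIT2 replicates 1 and 2 stood far above every other library, and SLIT2 replicates 3 and 4 lay at the level of vehicle replicates 1 and 2. Its difference of 1.04 (SE 0.388) had adjusted p = 0.131 without the block and 0.00154 with it. Mlkl, the executioner of necroptosis that Ripk3 phosphorylates, had 8.88, 8.98, 8.12 and 8.31 in vehicle and 8.64, 8.73, 8.22 and 8.25 with SLIT2. The vehicle and SLIT2 ranges overlapped, and its difference of -0.11 (interval -0.61 to 0.39) had adjusted p = 0.816 without the block and 0.28 with it.

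Of the 3 IAP genes 0 passed in limma without the block, with Birc2 alone at an unadjusted p under 0.05, and all 3 passed with it, in different directions. Birc3, which encodes cIAP2, a ubiquitin ligase of the TNF receptor complex, had 11.69, 11.72, 11.16 and 11.07 in vehicle and 12.69, 12.64, 11.64 and 11.49 with SLIT2. Its difference of 0.70 (SE 0.311) had adjusted p = 0.195 without the block and 0.00393 with it. Birc2, which encodes cIAP1 and lies 11.6 kb from Birc3 on the same strand of chromosome 9, had 9.63, 9.58, 9.60 and 9.54 in vehicle and 10.09, 10.06, 9.70 and 9.63 with SLIT2. Vehicle libraries were close together, and SLIT2 replicate 4 only equalled the highest of them. Its difference of 0.28 had adjusted p = 0.146 without the block and 0.042 with it. Xiap, the direct caspase inhibitor, had 12.38, 12.35, 12.17 and 12.18 in vehicle and 12.19, 12.23, 12.00 and 12.01 with SLIT2. Its values were lower in both sets, by a difference of -0.155 in replicates 1 and 2 and of -0.17 in replicates 3 and 4, and of -0.16 overall (adjusted p = 0.223 without the block, 0.00454 with it and 0.0311 with quantile normalization).

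Of the Pim kinases, which phosphorylate Bad and other targets and are controlled mainly through transcription, Pim1 rose. Pim1 had 10.60, 10.58, 10.69 and 10.84 in vehicle and 11.54, 11.57, 11.31 and 11.32 with SLIT2. No vehicle library reached a SLIT2 library, and the gene rose by 0.76 (SE 0.0845, adjusted p = 8.8e-04), or 1.69-fold on the rlog scale. Pim2 had 6.43, 6.50, 6.98 and 6.90 in vehicle and 6.46, 6.94, 6.83 and 6.80 with SLIT2, and Pim3 lay between 8.35 and 8.52 in vehicle and between 8.20 and 8.54 with SLIT2. Neither passed in either fit (Pim2 0.055, interval -0.31 to 0.42, adjusted p = 0.882; Pim3 -0.04, interval -0.24 to 0.17, adjusted p = 0.867). Their signs turned when single libraries were left out. The differences of Pim1 from Pim2 and from Pim3 were not tested.

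The sequence before the start sites was read for the members from the RefSeq promoter table (GRCm38.p6), which held 43 windows of 250 bases before to 50 bases after a start site for 30 of the 33 genes. Both strands were searched for the STAT motif TTCNNNGAA, the NF-kB consensus, the interferon response core (GAAA, any 2 bases, GAAA) and the GC box GGGCGG, and overlapping matches were each counted. The STAT motif was in 1 of 43 member windows, beside 8.3% of all 32851 windows, and that window belonged to Ripk1. The NF-kB consensus was in 5 windows (8.46% of all), of Bbc3, Bcl2l1, Bmf, Pim3 and Xiap, and the interferon core in 2 (3.44% of all), of Cflar and Ripk1. The GC box was in 29 of 43 member windows, 67.4%, beside 35.7% of all windows, which also include noncoding genes. A match is only a match of letters, and its absence from a window says nothing about binding elsewhere.

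The stretches below are parts before a start site that hold no annotated exon. They are given for the 2 genes with the largest called rises and for Ripk1, which was chosen after its match was seen. Capitals mark GC boxes and, at the end of the Ripk1 stretch, the STAT motif.
Pim1: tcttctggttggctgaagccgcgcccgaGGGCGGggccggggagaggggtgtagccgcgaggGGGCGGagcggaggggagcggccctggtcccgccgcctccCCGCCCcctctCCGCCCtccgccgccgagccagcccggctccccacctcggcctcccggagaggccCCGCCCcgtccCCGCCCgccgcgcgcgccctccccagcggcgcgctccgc
Apaf1: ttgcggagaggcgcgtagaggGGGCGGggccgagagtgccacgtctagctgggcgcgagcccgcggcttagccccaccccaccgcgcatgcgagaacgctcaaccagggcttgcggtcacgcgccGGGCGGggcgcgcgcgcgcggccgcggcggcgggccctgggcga
Ripk1: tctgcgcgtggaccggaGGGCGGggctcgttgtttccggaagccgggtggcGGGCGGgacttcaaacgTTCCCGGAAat
Pim1 (chr17:29490535-29490752, plus strand) held 6 GC boxes and Apaf1 (chr10:91082771-91082939, minus strand) held 2, and neither stretch held one of the other 3 motifs. Ripk1 (chr13:34002795-34002873, plus strand) held 2 GC boxes and 1 STAT match, and a further STAT match began at position -108 from the start site, outside the stretch shown. Its interferon core match began at position -5 and ran past the start site. This Ripk1 start site lies within the gene, whose annotation begins at chr13:34002363. The Ripk1 window at that beginning (chr13:34002113-34002412) held GC boxes and none of the other 3 motifs.

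The size of the SLIT2 effect differed between the replicate sets for 5 members, by a limma test of that difference, whose error comes from duplicates. They were Ripk3 (1.33 in replicates 1 and 2 and 0.75 in replicates 3 and 4, adjusted p = 0.0105), Birc3 (0.96 and 0.45, 0.0127), Pim1 (0.97 and 0.55, 0.017), Birc2 (0.47 and 0.10, 0.0248) and Pmaip1 (0.52 and 0.05, 0.0336). That is 16.1% of the 31 tested members, where 4.40% of all genes tested passed. In all 5 the difference was positive in both sets and smaller in replicates 3 and 4. When the variance prior had no trend, Ripk3 alone passed (adjusted p = 0.0245) and the other 4 had adjusted p between 0.0607 and 0.0709. Over all genes tested, the calls of this test went from 521 with the trend to 116 without it. Without such a call, Bcl2a1d differed by -0.63 and -0.61 in the sets and Ripk1 by 0.21 and 0.23. Of the 31 members 7 had opposite signs in the sets, and none of these was called without or with the replicate block. They were Mlkl (-0.25 and 0.02), Pim2 (0.24 and -0.13), Bax (0.01 and -0.01), Bak1 (0.06 and -0.01), Diablo, Tradd and Pim3. The share of all genes tested with opposite signs was not counted.

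**Figure D5:**
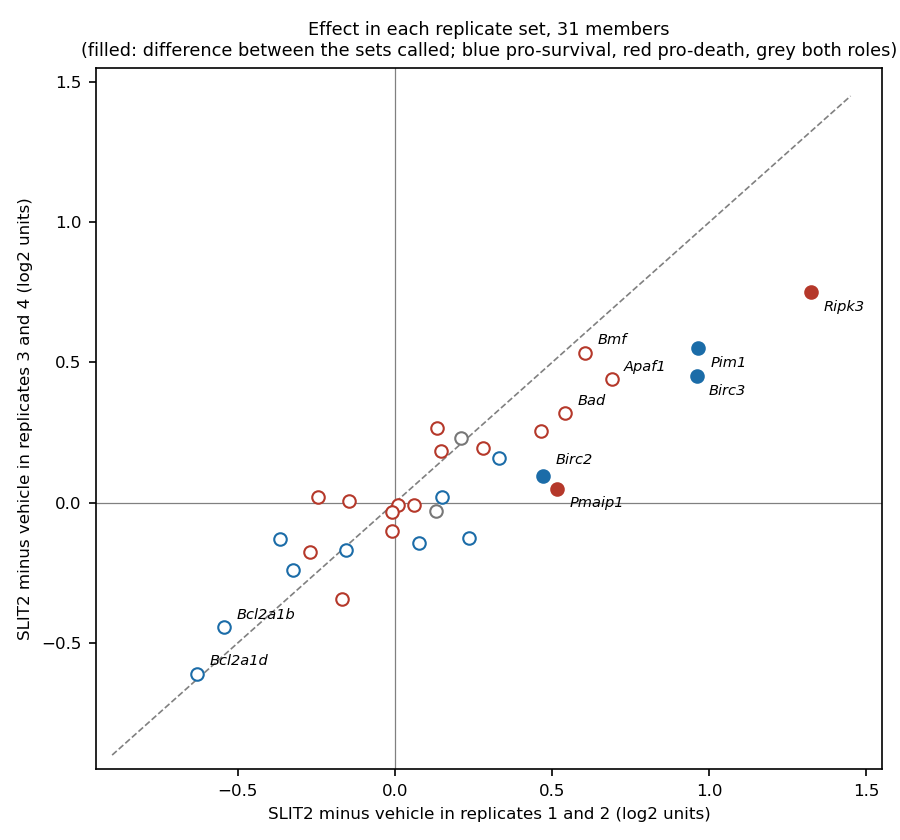
Each point is a member, with its SLIT2 minus vehicle difference in replicates 1 and 2 on the horizontal axis and in replicates 3 and 4 on the vertical axis, both in log2 units, and the dashed line marks equal effects. The 5 filled points, Ripk3, Birc3, Pim1, Birc2 and Pmaip1, lie below the line, while Bcl2a1d and Bcl2a1b lie near it.

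Apart from treatment, the replicate sets had different levels of many members. In both groups alike, 10 of 31 members were higher in every library of replicates 1 and 2 than in replicates 3 and 4, and 7 were lower. Together these were 54.8% of the members, close to the 56.3% of all genes tested, of which 30.3% were higher and 26.1% lower in replicates 1 and 2. Ripk3 was higher by 1.07 in replicates 1 and 2 over both groups, Birc3 by 0.85, Pmaip1 by 0.65, Mlkl by 0.58 and Bmf by 0.50. Bcl2a1b, Bcl2, Bid, Bax, Casp9, Diablo and Tradd were the 7 with lower values there. The sets also differed in Xist and Ddx3y, the labels do not say what they are, and their part in these effects was not tested.

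Some members are neighbours in the genome. Cflar and Casp8 lie 36.5 kb apart on the plus strand of chromosome 1, with differences of 0.245 and 0.20. Birc2 and Birc3 had 0.28 and 0.70. Bcl2a1b and Bcl2a1d, 467.3 kb apart on opposite strands, had -0.49 and -0.62, on values that may share reads.

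The other genes of these pathways were taken from a list of 52 that does not include the members. Of 48 tested, 4 rose and 4 fell, 16.7%, beside 13.3% of all genes tested (10 and 10 with the block, beside 33%). Among 17 death receptor and receptor complex genes 3 rose and 1 fell. The block called 6 of them higher and 3 lower. Tnfrsf1a, the main TNF receptor, rose by 0.55 (SE 0.0542, adjusted p = 4.83e-04), from 12.76, 12.74, 12.61 and 12.62 to 13.28, 13.30, 13.16 and 13.19, with no overlap. Tab2, an adaptor of the kinase Tak1, rose by 0.35 (adjusted p = 0.0208), and Sharpin, a subunit of the linear ubiquitin ligase that steadies the TNF receptor complex, by 0.29 (adjusted p = 0.00706). Tnfaip3, the ubiquitin editor A20 that restrains NF-kB, fell by 0.64 (SE 0.162, adjusted p = 0.0362). Fas and Zbp1, a death receptor and a sensor that can engage Ripk3, differed by 0.98 and 1.11 (adjusted p = 0.0934 and 0.0833, and 0.00264 and 0.00518 with the block). Tnfrsf1b, the second TNF receptor, and Ikbkg, the regulatory subunit of the kinase that activates NF-kB, differed by -0.43 and -0.30 (adjusted p = 0.145 and 0.143, and 4.48e-04 and 0.0049 with the block). With the duplicates of each set averaged, Tnfrsf1a, Tab2, Tnfaip3 and Tnfrsf1b passed (adjusted p from 0.0329 to 0.0436), while Sharpin (0.0679), Fas (0.0834), Ikbkg (0.0855) and Zbp1 (0.0953) did not.

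Among 14 genes of the Akt, Sgk and p53 axes 1 rose and 2 fell. Akt2, a survival kinase, rose by 0.32 (adjusted p = 0.00439). Foxo3, a transcription factor that Akt restrains and that can activate Bcl2l11 and Bbc3, fell by 0.38 (adjusted p = 0.00929). Among 11 execution genes Parp1, a caspase substrate that signals DNA breaks, fell by 0.20 (adjusted p = 0.0222). With averaged duplicates Akt2 (adjusted p = 0.0808), Foxo3 (0.0574) and Parp1 (0.12) did not pass. Of 6 tested further Bcl-2 family genes 0 passed in limma in either fit, and 0 had an unadjusted p under 0.05 without the block.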

How the data were processed

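The authors deposited regularized-log values on a log2 scale, rounded to 2 decimals, for 41444 genes in 8 paired-end libraries, and the depth is not recoverable from them. The submitters' processing notes list the tools DESeq2, Picard 2.23.8, Salmon, FastQC 0.11.9, STAR and SAMtools 1.7 and the build names GRCm38 and mm10, without the role of each or the strand setting. The kit was stranded, per the labels' protocols.

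Differences were fitted with limma 3.58.1 in R 4.3.3 (lmFit, then eBayes with a mean trend) on treatment alone, and p-values were adjusted over the 11851 genes with a mean of at least 4. A gene was called at an adjusted p under 0.05. All 33 members are named, and non-members by list and call. Same-numbered samples deviated together (correlations 0.637, 0.671, 0.753 and 0.587 of their deviations from the group means). Replicates 2 and 4 correlated best with numbers 1 and 3, so the values show a pairing by replicate set but not by number. The replicate block assumes a pairing by number. The labels do not say what the numbers or the sets share. The effect of SLIT2 in replicates 3 and 4 against that in 1 and 2 was tested as an interaction. Alternatives were replicate or set blocks, averaged duplicates, other filters, quantile and median scaling, other variance priors, library weights, an exact permutation test and leaving out each library. The fits without and with a block were tested on simulated data, with noise independent between libraries and equal effects in both sets. That simulation cannot show how the fits behave where duplicates share a source or effects differ between sets. Promoters came from RefSeq (GRCm38.p6) and coding sequence from GENCODE M21. The members and lists were chosen with earlier results of these data known. A few genes of the lists are counted but not reported here by name.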

Additional observations from a re-analysis of the deposited data

Results flagged for a closer look

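The effect of SLIT2 differed between the replicate sets for 5 members, by the limma test of the difference itself. The effect in replicates 3 and 4 minus that in replicates 1 and 2 was -0.57 for Ripk3 (adjusted p = 0.0105), -0.51 for Birc3 (0.0127), -0.41 for Pim1 (0.017), -0.38 for Birc2 (0.0248) and -0.47 for Pmaip1 (0.0336), on the log2 scale.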

How the results depend on the processing

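Fits without and with a block gave different counts. All genes called numbered 1581 without a block, 3912 with the replicate block, 4652 with a set block, 688 with averaged duplicates and 1021 to 1254 with a library left out (1021 without SLIT2 replicate 2). Members called numbered 7, then 20 with the replicate block, 21 with the set block and 3 with averaged duplicates. They numbered 6 to 8 with a library left out. The exact permutation test called 0 members, but its smallest adjusted p over all genes tested was 0.139, so it could call no gene here. The counts of 0 by permutation that follow therefore say nothing about the members. Pro-survival genes called higher were 1, and 4 with either block, and 0 with averaged duplicates or permutation. Pro-survival genes called lower were 2, and 5 with either block, and 0 by permutation. Pro-death genes called higher were 4, and 8 with the replicate block, 9 with the set block, 1 with averaged duplicates, 0 by permutation and 3 to 4 with a library left out. Pro-death genes called lower were 0, and 2 with either block, and 0 to 1 with a library left out (1 without vehicle replicate 1, Bbc3). Other pathway genes called were 8, then 20 with the replicate block, 27 with the set block, 5 with averaged duplicates and 5 to 7 with a library left out (5 without vehicle replicate 1 or 2). The differences between replicate sets, 5 members, became 1 without a variance trend, while the calls over all genes tested went from 521 to 116.

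All 7 calls were kept with either block, a minimum of 6, median scaling, no trend, a robust prior and library weights (whose estimation stopped before convergence), and leaving out a library lost Bcl2l11 alone. Signs turned for Bak1 with quantile normalization (-0.01), and when a library was left out for Bak1 (-0.03 to 0.07), Casp9 (-0.06 to 0.00), Mlkl (-0.26 to 0.02), Pim2 (-0.04 to 0.15) and Pim3 (-0.09 to 0.02), none of them called. The cause of these changes was not tested. Without counts, the depth behind low genes such as Bok and Bik is unknown, and rlog shrinks their differences.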

Other observations

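In the list of other pathway genes, the SLIT2 effect also differed between the replicate sets for 8 of 48 tested genes, 16.7%, beside 4.40% of all genes tested. Of the 8, 5 had the larger effect in replicates 1 and 2. Fas, a death receptor, differed by 1.29 in replicates 1 and 2 and by 0.67 in replicates 3 and 4 (adjusted p = 0.0176). Traf1 and Traf2, adaptors that carry the IAP proteins to TNF receptors, differed by 0.82 and -0.08 (adjusted p = 0.00462) and by 0.59 and 0.05 (0.0156). Bnip3, a mitophagy receptor, differed by 0.50 and 0.03 (0.0135), and the kinase gene Akt2 by 0.41 and 0.24 (0.0477).

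A pair of genes had the larger effect in replicates 3 and 4. Zbp1 differed by 0.71 in replicates 1 and 2 and by 1.51 in replicates 3 and 4 (adjusted p = 0.0349), unlike Ripk3, the kinase it can engage, which differed by 1.33 and 0.75. Sgk1, a kinase related to Akt, differed by -0.10 and -0.54 (adjusted p = 0.00646). Bcl2a1a, whose reads may be shared with its copies, had opposite signs, 0.365 and -0.34 (adjusted p = 0.0494).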
